A study of Mus musculus with 6 samples.

Results

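H3K4me3 was examined at the promoters of 10 genes that hold back the cell cycle or form the p53 axis. They are the CIP/KIP inhibitors Cdkn1a, Cdkn1b and Cdkn1c, the INK4 genes Cdkn2a, Cdkn2b, Cdkn2c and Cdkn2d, the retinoblastoma gene Rb1, and Trp53 with its negative regulator Mdm2. The genes were chosen by name for these roles and are 10 of the 21951 protein-coding genes of the GENCODE vM21 annotation. The mark was measured by ChIP-seq in 2 mouse lymphoid cell lines, with 2 H3K4me3 libraries and 1 input library from each. Scid.adh.2C2 is a T-cell progenitor line derived from a pro-T tumor of CB17-Prkdc<scid> mice, and in the methods of the study it is a subclone of a line from a spontaneous thymic lymphoma. The other, called the Abelson line here, is an Abelson transformed progenitor B line, or pre-B in the methods of the study. Each lineage was thus represented by 1 transformed line. The authors combined the replicates of a line into 1 peak list, so the values have no spread between replicates and the differences between the lines have no replicate check.

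Progression from G1 into S phase is driven by cyclin-dependent kinases, which phosphorylate the retinoblastoma protein and release E2F transcription factors. INK4 proteins bind and inhibit the kinases that pair with D-type cyclins, whereas CIP/KIP proteins inhibit a wider range of cyclin-kinase complexes. The p53 protein induces the CIP/KIP gene Cdkn1a after DNA damage, and Mdm2, itself a p53 target, marks p53 for degradation. The Arf protein, encoded by Cdkn2a in a reading frame other than that of p16Ink4a, inhibits Mdm2 and so connects the INK4 locus with p53. H3K4me3 is a histone mark found around the start sites of active and poised genes, and most promoters rich in CpG dinucleotides carry it.

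A promoter was called marked when a peak overlapped the 2500 bp either side of any annotated transcription start site (TSS) of the gene. The list of Scid.adh.2C2 contained 15513 peaks with a median fold enrichment over background of 20.3, and the list of the Abelson line contained 19604 peaks with a median of 15.4. The lists were normalized separately. Levels were therefore compared between the lines as percentiles, which rank the highest promoter fold enrichment of a gene among all marked protein-coding genes of the same list. Lineage markers followed the labels of the lines. All 12 T-lineage markers examined were marked in Scid.adh.2C2 and 5 of them in the Abelson line, and all 12 B-lineage markers were marked in the Abelson line and 2 of them, Vpreb1 and Pou2af1, in Scid.adh.2C2.

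The same 7 of the 10 genes were marked in both lines: Cdkn1a, Cdkn1b, Cdkn2c, Cdkn2d, Rb1, Trp53 and Mdm2. Among all protein-coding genes, 45.5% were marked in Scid.adh.2C2, 48.2% in the Abelson line and 42.2% in both. None of the 10 was marked in 1 line only, against 3.28% of all genes marked only in Scid.adh.2C2 and 5.96% marked only in the Abelson line. A count of 0 among 10 genes is near what these shares give. At the remaining 3 genes, Cdkn1c, Cdkn2a and Cdkn2b, no peak passed the authors' thresholds in either line, as at 48.6% of all protein-coding genes. Rb1, Trp53 and Mdm2 were on the marked side.

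**Figure D1:**
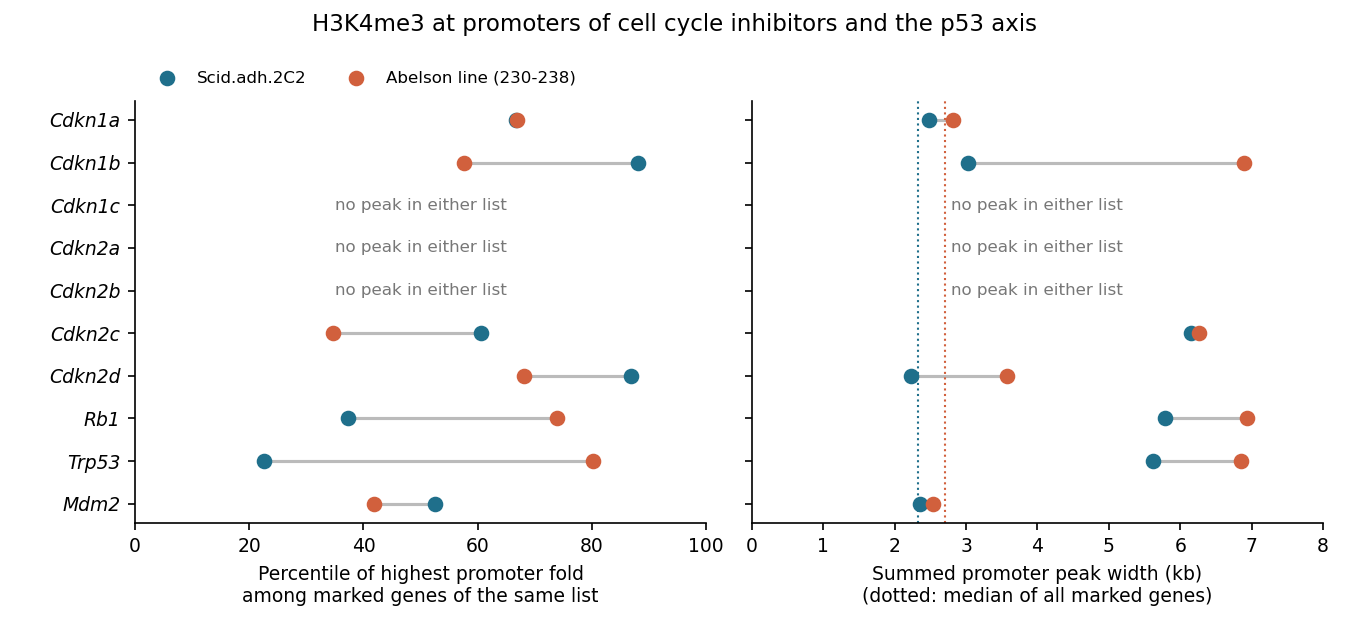
Percentile of the highest promoter fold enrichment (left, %) and summed width of the promoter peaks (right, kb) of each gene in Scid.adh.2C2 and the Abelson line, 1 value per line from the combined peak list, with dotted lines at the median width over all marked genes of each list. Trp53 has the widest gap between the percentiles, from 22.6 in Scid.adh.2C2 to 80.2 in the Abelson line, and Cdkn1b the widest gap between the widths, from 3025 to 6889 bp.

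Cdkn2a and Cdkn2b lie next to each other on chromosome 4 (GRCm38) and are transcribed from the minus strand. Cdkn2a has 1 TSS for the Arf transcript at position 89294653 and another for the p16Ink4a transcript at 89282192, and Cdkn2b, which encodes p15Ink4b, has its TSS at 89311039. The 150 bases before each of these start sites are shown from the RefSeq copy of GRCm38, because the promoters without a peak differed in their content of CpG, the dinucleotide given in capitals. They are chr4:89294654-89294803, chr4:89282193-89282342 and chr4:89311040-89311189, each written 5′ to 3′ on the minus strand.
Cdkn2a, Arf: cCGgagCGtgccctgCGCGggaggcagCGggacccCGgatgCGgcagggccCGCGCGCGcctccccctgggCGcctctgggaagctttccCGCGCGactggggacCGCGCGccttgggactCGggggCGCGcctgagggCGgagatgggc
Cdkn2a, p16Ink4a: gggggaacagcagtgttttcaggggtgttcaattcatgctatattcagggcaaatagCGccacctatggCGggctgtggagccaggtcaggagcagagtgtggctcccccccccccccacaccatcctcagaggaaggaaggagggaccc
Cdkn2b: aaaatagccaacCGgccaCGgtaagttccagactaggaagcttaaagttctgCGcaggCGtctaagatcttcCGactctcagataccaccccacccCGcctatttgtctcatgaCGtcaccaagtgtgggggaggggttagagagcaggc

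The Arf sequence held 22 CpG dinucleotides, the Cdkn2b sequence 7 and the p16Ink4a sequence 2. Over the 1000 bp around the TSS, the ratio of observed to expected CpG was 0.983 at the Arf start, 0.538 at the p16Ink4a start and 0.744 at Cdkn2b. A start site was called CpG-rich at a ratio of at least 0.6 and a GC content of at least 50%, and each gene was placed by its start site with the highest ratio. By this measure Cdkn2a ranked at the 96.0 percentile of protein-coding genes, close to Cdkn1b and Mdm2, which were marked in both lines.

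The nearest peaks lay more than 100 kb from both genes. In Scid.adh.2C2 the nearest peak was 143 kb from a TSS of Cdkn2a and 172 kb from that of Cdkn2b. In the Abelson line these distances were 119 kb and 148 kb. Over all protein-coding genes with no promoter peak, the median distance to the nearest peak was 91.7 kb in Scid.adh.2C2 and 92.1 kb in the Abelson line, and about as many genes as not were within 100 kb, since 48.1% and 48.0% were farther away.

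Within 200 kb of Cdkn2a and Cdkn2b, 1 peak was found in Scid.adh.2C2 and 3 in the Abelson line, and no peak of either list lay within 100 kb. The peak common to both lines covered the promoter of Mtap, the gene of the purine salvage enzyme methylthioadenosine phosphorylase and the only other protein-coding gene with a TSS in this interval. It had a fold enrichment of 32.1 and a width of 2469 bp in Scid.adh.2C2, and of 22.8 and 6375 bp in the Abelson line, each within its own list. The other peaks of the Abelson line were weaker. One lay inside Mtap beside the pseudogene Gm12607, with a fold enrichment of 9.10 and an IDR score of 645, where IDR stands for the irreproducible discovery rate and the score, 1000 at most, for how well the replicates agree on a peak. The other was 168 kb beyond Cdkn2b, outside annotated genes, with a fold enrichment of 9.65. Only the Mtap peak of the Abelson line remained when at least 10-fold enrichment was required or when the lists were limited to equal numbers of peaks.

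The interval without a peak around the pair was 386 kb long in Scid.adh.2C2 (chr4:89138957-89524944) and 316 kb long in the Abelson line (chr4:89163520-89479033). Of the 15492 intervals between neighboring peaks in Scid.adh.2C2, 8.70% were at least as long, and of the 19583 in the Abelson line, 7.78% were. Because the interval was chosen around genes without a peak, these shares cannot show that it is unusual. Dmrta1, the next protein-coding gene beyond Cdkn2b, had no promoter peak in either line. The number of genomic copies of the interval in the lines was not analysed here.

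**Figure D2:**
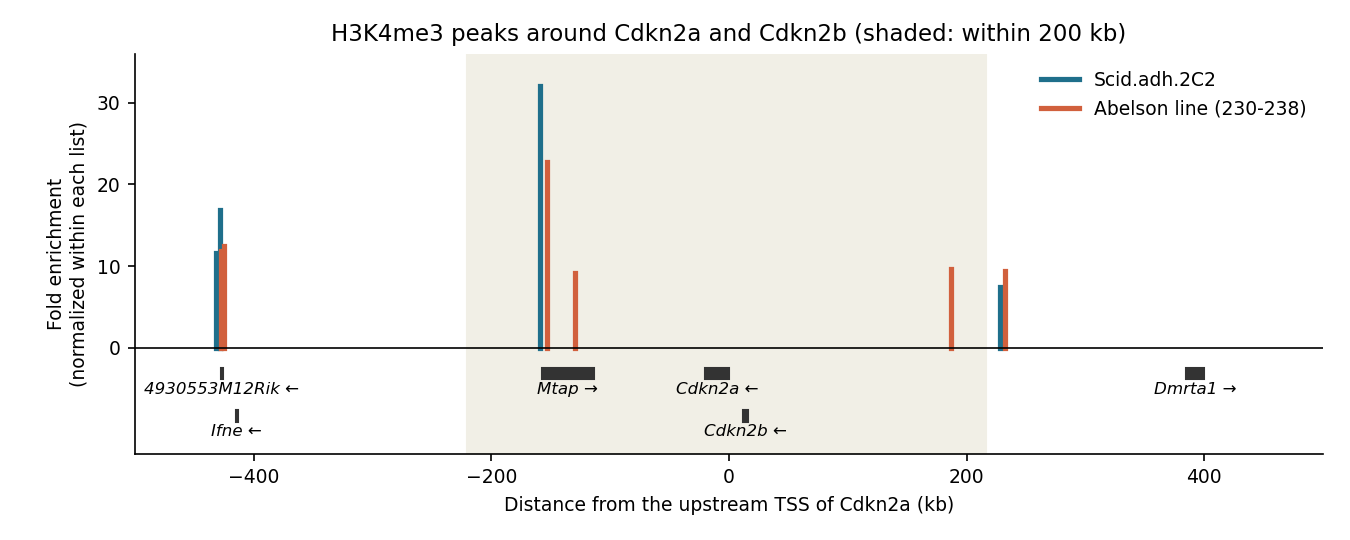
Fold enrichment of each peak (y axis, normalized within each list) against its distance from the Arf start site of Cdkn2a (x axis, kb) in Scid.adh.2C2 and the Abelson line, with selected genes drawn as boxes, arrows for the strand, and the bars of the lines set 2 kb to either side of the peak centers. The shaded interval of 200 kb around Cdkn2a and Cdkn2b holds 1 peak of Scid.adh.2C2 and 3 peaks of the Abelson line, with none between Mtap and the far side of Cdkn2b within 100 kb of the pair.

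Cdkn1c, the remaining gene with no peak, encodes p57Kip2 and lies in an imprinted cluster on chromosome 7, where it is expressed from the maternal allele. Its promoter is dense in CpG, with a ratio of 0.903, the 88.8 percentile of protein-coding genes. The nearest peak was 86.2 kb away in Scid.adh.2C2 and 85.4 kb away in the Abelson line, at the promoter of Nap1l4 in both. That peak had a fold enrichment of 26.9 in Scid.adh.2C2 and of 21.6 in the Abelson line. The interval without a peak around Cdkn1c measured 179 kb in Scid.adh.2C2 and 250 kb in the Abelson line. Besides Cdkn1c, it held a start site of Nap1l4, whose promoter peak bounds the interval. It also included Phlda2 and Slc22a18, imprinted neighbors of Cdkn1c that are named here after their values were seen.

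All of the 10 genes except Trp53 were CpG-rich. Of these 9 genes, 3 had no peak in either line, compared with 21.7% of the 11153 CpG-rich protein-coding genes. CpG-rich genes were marked in 71.8% of cases in Scid.adh.2C2 and in 74.7% in the Abelson line, and the 10785 other genes in 18.3% and 20.8%. Trp53, with a ratio of 0.565, fell in the second class and was marked in both lines. Between ratios of 0.5 and 0.6, 46.5% of genes were marked in Scid.adh.2C2 and 49.5% in the Abelson line. Rb1 had the highest ratio of the 10 genes, 1.06. The share of marked genes rose with the CpG ratio to 79.9% in Scid.adh.2C2 and 81.1% in the Abelson line between ratios of 0.9 and 1, the range that holds Cdkn1c and Cdkn2a as well as Cdkn1b and Mdm2.

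**Figure D3:**
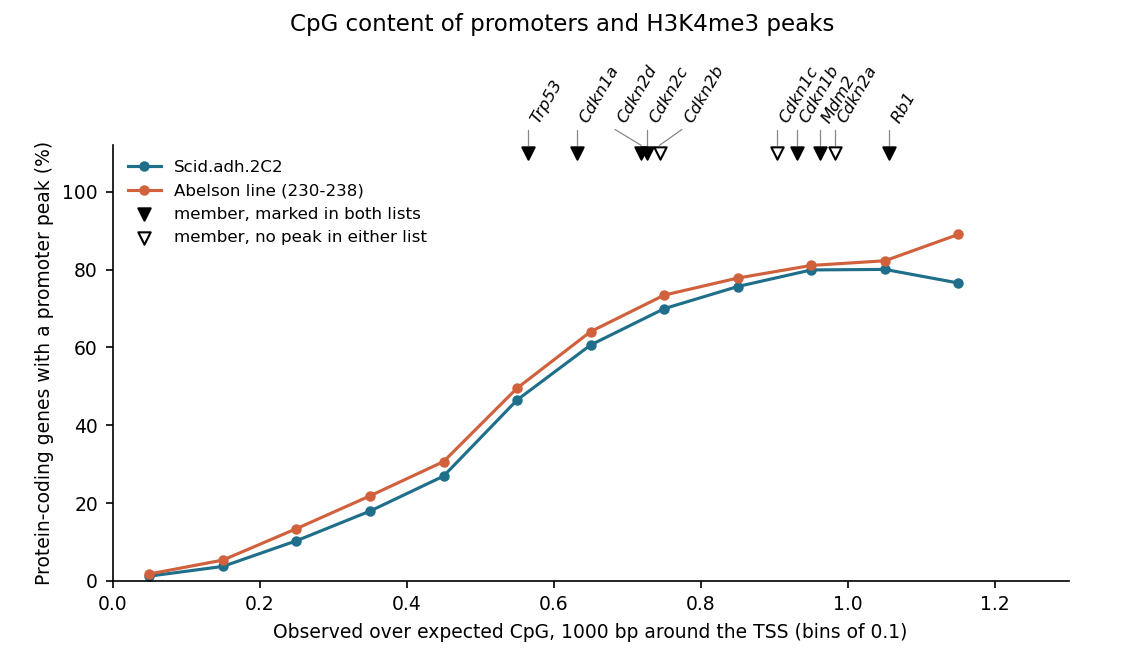
Percent of protein-coding genes with a promoter peak (y axis) in bins of the observed over expected CpG ratio (x axis) for Scid.adh.2C2 and the Abelson line, with triangles at the ratio of each of the 10 genes, filled where the gene was marked in both lines and open where it was marked in neither. Cdkn2a, at 0.983, and Cdkn1c, at 0.903, are unmarked at ratios where about 8 in 10 genes are marked.

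Among the CIP/KIP genes with a peak, Cdkn1b, which encodes p27Kip1 and restrains the division of lymphocytes, had the highest fold enrichment in Scid.adh.2C2. Its promoter is among the CpG-dense ones of the set, and the 150 bases before its first TSS (chr6:134920251-134920400, plus strand) held 23 CpG dinucleotides, in capitals.
Cdkn1b: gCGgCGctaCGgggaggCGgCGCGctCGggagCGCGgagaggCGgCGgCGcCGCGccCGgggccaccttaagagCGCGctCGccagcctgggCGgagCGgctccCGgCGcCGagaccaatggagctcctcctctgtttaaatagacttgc

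The highest promoter fold enrichment of Cdkn1b was 35.7 in Scid.adh.2C2, at the 88.1 percentile of its list, and 22.8 in the Abelson line, at the 57.6 percentile. The peak over both start sites measured 3025 bp in Scid.adh.2C2 and 5392 bp in the Abelson line, where it extended over much of the gene body. A further peak lay upstream in both lines. In the Abelson line it had a fold enrichment of 14.6 and reached into the promoter window, whereas in Scid.adh.2C2 it had a fold enrichment of 26.8 but ended 2696 bp before the TSS, just outside the window. With the upstream peak, the promoter peaks of Cdkn1b added up to 6889 bp in the Abelson line, 2.28 times the width in Scid.adh.2C2. This ratio leaves out the upstream peak of Scid.adh.2C2, 1393 bp wide, with which the peaks of that line add up to 4418 bp. Downstream of the gene, the promoter window of the noncoding RNA Lockd was marked in both lines. The strongest peak there had a fold enrichment of 31.1 in Scid.adh.2C2 and 27.9 in the Abelson line. It did not overlap Lockd, and in the Abelson line it overlapped Cdkn1b. The strongest peak that overlapped Lockd had 28.6 in Scid.adh.2C2 and 14.3 in the Abelson line.

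By fold enrichment, Cdkn1a, which encodes p21 and is the best known target of p53, held nearly the same rank in both lines. It reached a fold enrichment of 30.4 in Scid.adh.2C2 and of 24.2 in the Abelson line, at percentiles of 66.7 and 66.9. The peak, 2476 bp and 2823 bp wide, covered the start sites at 29093769 and 29093781 on chromosome 17. The start sites annotated upstream, at 29090976 and 29090979, lay outside it, 2461 bp and 2458 bp from the peak of Scid.adh.2C2. A sequence with the letters of a p53 response element, with 1 mismatch to the consensus, was found 29 bp before the first of these upstream starts, and is shown in capitals within chr17:29090913-29090962 on the plus strand.
Cdkn1a: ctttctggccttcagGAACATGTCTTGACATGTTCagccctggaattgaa

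This element was 2489 bp from the promoter peak of Scid.adh.2C2 and 2342 bp from that of the Abelson line, and so in neither peak. The search took 2 adjoining copies of the p53 half-site on both strands, with the core of each fixed and at most 1 mismatch in the rest. It found a match within 2500 bp of 0.595% of the 93513 start sites of protein-coding genes and of 2 of the 38 start sites of the 10 genes. Both are the upstream starts of Cdkn1a, and the same element is counted at each. A match describes letters only. Trp53cor1, the gene of a long noncoding RNA induced by p53, lies upstream of Cdkn1a. Of the peaks within 20 kb of Cdkn1a, 3 of Scid.adh.2C2 fell in promoter windows of Trp53cor1, as did 4 of the Abelson line. The strongest in each line were different peaks. That of Scid.adh.2C2 had a fold enrichment of 17.1 and overlapped no gene, and the Abelson line had 6.86 at that place. That of the Abelson line had 16.5 and overlapped Trp53cor1, and Scid.adh.2C2 had 14.3 there.

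Of the INK4 genes, Cdkn2c and Cdkn2d carried the mark. They encode p18Ink4c and p19Ink4d, which act on the same kinases as p16Ink4a. Their upstream promoters had fewer CpG dinucleotides than that of Arf, and the 150 bases before the most upstream TSS of each (chr4:109667190-109667339 and chr9:21291408-21291557, minus strand) are shown for comparison with the unmarked INK4 promoters.
Cdkn2c: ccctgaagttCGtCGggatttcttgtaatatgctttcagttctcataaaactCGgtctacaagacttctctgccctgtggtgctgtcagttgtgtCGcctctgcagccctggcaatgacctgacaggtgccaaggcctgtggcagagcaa
Cdkn2d: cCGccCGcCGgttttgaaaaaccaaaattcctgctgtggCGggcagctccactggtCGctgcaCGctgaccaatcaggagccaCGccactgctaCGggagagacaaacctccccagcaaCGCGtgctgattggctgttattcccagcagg

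These stretches held 4 and 10 CpG dinucleotides. The unmarked INK4 promoters, with 2 at p16Ink4a, 7 at Cdkn2b and 22 at Arf, lay on both sides of these counts. Cdkn2c was covered by 1 broad peak that took in both of its start sites, 6154 bp wide in Scid.adh.2C2 and 6263 bp in the Abelson line. By summed width it stood at the 98.2 percentile of marked genes in Scid.adh.2C2 and the 94.9 percentile in the Abelson line. Its fold enrichment was 29.1 and 19.4, at percentiles of 60.6 and 34.6. Downstream of it, a peak of 9068 bp with a fold enrichment of 25.4 nearly met it in the Abelson line and overlapped the gene as well. In Scid.adh.2C2 the neighboring peak on that side measured 2802 bp and was well apart from it.

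Cdkn2d had 2 promoter peaks in each line. The peak over the downstream TSS, shared with the window of the neighboring gene Kri1, had a fold enrichment of 35.2 in Scid.adh.2C2 and 24.4 in the Abelson line. The upstream peak reached 15.6 and 7.78. The start sites at 21291308 and 21291407 fell in the gap between the peaks. Together the peaks measured 2236 bp in Scid.adh.2C2 and 3569 bp in the Abelson line, a ratio of 1.60, and the highest fold enrichment stood at percentiles of 86.8 and 68.1. In Scid.adh.2C2 a further peak of 279 bp, with a fold enrichment of 5.64, overlapped the gene but lay 2622 bp from the nearest TSS, just outside the window, in a stretch that the larger peak of the Abelson line covers. With it the ratio was 1.42.

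**Figure D4:**
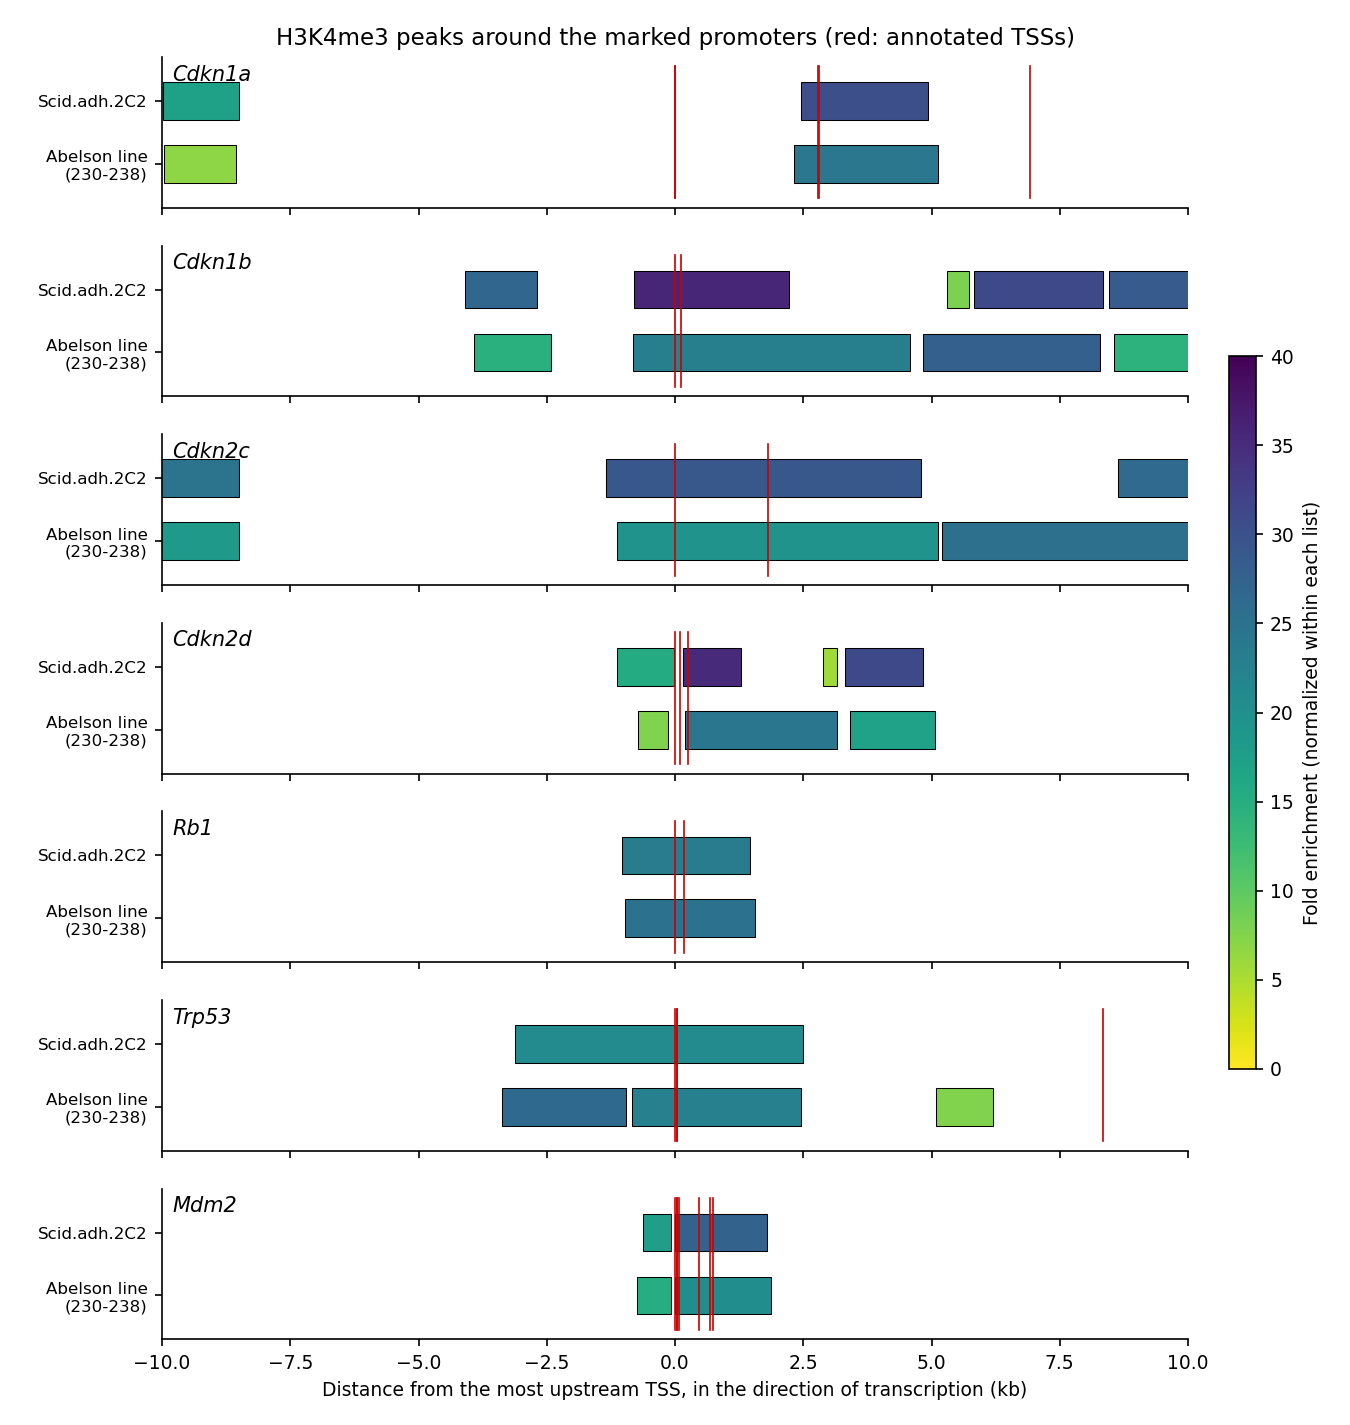
Peaks of Scid.adh.2C2 (upper row of each panel) and the Abelson line (lower row) within 10 kb of the most upstream TSS of the 7 marked genes, against distance in the direction of transcription (x axis, kb), colored by fold enrichment as normalized within each list, with red lines at annotated TSSs. The start sites upstream at Cdkn1a lie outside any peak, Trp53 has 1 peak of 5621 bp in Scid.adh.2C2 where the Abelson line has separate ones, and the peak over the start sites of Cdkn2c has nearly the same width in both lines but nearly meets its downstream neighbor only in the Abelson line.

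Rb1 encodes the pocket protein on which the CDK inhibitors converge. The peak over its main start site on chromosome 14 had a fold enrichment of 23.5 in Scid.adh.2C2 and 25.1 in the Abelson line, with widths of 2506 bp and 2549 bp. A second peak within the gene overlapped the window of an internal TSS and also the promoter of Lpar6, a receptor gene nested in an intron of Rb1. It was slightly higher, at 24.5 and 25.3. The percentile of Rb1, set by that second peak, was 37.3 in Scid.adh.2C2 but 73.9 in the Abelson line.

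Rb1 was also 1 of 3 genes of the set with letters of an E2F site near a start site, the motif through which pocket proteins and E2F factors act. The words TTTCCCGC, TTTGGCGC, TTTCGCGC and TTTGCCGC were searched on both strands in the 300 bp from 250 bp before each TSS. They occurred in 2.53% of the windows of all 93513 start sites and in 4 of the 38 of the 10 genes. Each word contains a CpG and 9 of the 10 genes were CpG-rich. The share among CpG-rich genes alone was not computed, so these values cannot show an excess in the set. The windows of both matching start sites of Rb1 overlap and hold the same word, which is counted at each. The matches lay at Cdkn2a before the Arf start, at Cdkn2d and at Rb1, and are shown in capitals in 30 bases of chr4:89294700-89294729, chr9:21291547-21291576 and chr14:73325802-73325831, all on the minus strand.
Cdkn2a, Arf: ctctgggaagcTTTCCCGCgcgactgggga
Cdkn2d: acctcctcctcTTTCCCGCccgcccgccgg
Rb1: ggaagtgacgtTTTCCCGCggttggcccgg

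The word was the same, TTTCCCGC, at all 3 genes. It began 65 bp before the Arf start, 158 bp before the upstream start of Cdkn2d and 2 bp after the main start of Rb1. Of the 3 genes, Cdkn2d and Rb1 were marked and Cdkn2a was not, so that the letters occurred at promoters of both kinds.

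Trp53 shares its promoter region with Wrap53, which is transcribed in the opposite direction and gives an antisense transcript that regulates p53. In Scid.adh.2C2 a single peak of 5621 bp spanned both promoters, with a fold enrichment of 21.1. In the Abelson line the region was split. A peak of 2430 bp on the Wrap53 side had a fold enrichment of 26.4, and a peak of 3290 bp over the main start sites of Trp53 had 22.7. A further peak, of 7.59 with an IDR score of 617, fell in the window of an internal TSS. The percentile of Trp53 was 22.6 in Scid.adh.2C2 but 80.2 in the Abelson line, where it came from the Wrap53 side.

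Mdm2 has a constitutive promoter and an internal promoter that responds to p53. Both lines had 2 peaks there, with the most upstream TSS at 117710758 on chromosome 10 in the gap between them, 6 bp from the nearest peak in each. The larger peak covered 6 start sites downstream and had a fold enrichment of 27.6 in Scid.adh.2C2 and 20.5 in the Abelson line. Its summit lay 51 bp before the TSS at 117710078 in Scid.adh.2C2 and 180 bp after the TSS at 117710685 in the Abelson line. Each of these is the start site nearest to the summit, and no replicate values bear on the difference. The percentiles of 52.5 and 41.8 differed by 10.7 points, and the summed widths of 2352 bp and 2536 bp were close to the medians of all marked genes, 2325 bp and 2704 bp.

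Across the 7 marked genes, the percentile differed by 25 points or more at 4. Cdkn1b and Cdkn2c were higher in Scid.adh.2C2, where 21.3% of the 9261 genes marked in both lines were higher by as much, and Trp53 and Rb1 were higher in the Abelson line, where 22.8% were. By −log10 q in place of the fold enrichment, none of the 7 genes differed by 25 points, while 15.1% of the 9261 genes were higher by as much in Scid.adh.2C2 and 17.0% in the Abelson line. By the highest promoter peak, each of the 4 kept its direction, with Cdkn1b at 76.8 and 57.5, Cdkn2c at 70.7 and 67.7, Trp53 at 61.2 and 75.3, and Rb1 at 65.0 and 72.4. At Trp53 the value of the Abelson line came from the Wrap53 side, and the peaks over the main start sites of Trp53 stood at nearly equal percentiles of −log10 q among marked genes, 61.2 in Scid.adh.2C2 against 61.5. By fold enrichment these peaks stood at 22.6 and 56.8. Mdm2 was higher in Scid.adh.2C2 by both measures, and the gap at Cdkn2c was only 3.03 points by −log10 q. Cdkn1a, nearly level by fold enrichment, was higher in Scid.adh.2C2 by 8.37 points of −log10 q percentile, at 61.8 against 53.4.

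The summed peak width differed by 1.5 times or more at 2 of the 7 genes, Cdkn1b and Cdkn2d. Both were wider in the Abelson line, as were 18.0% of the genes marked in both lines, and none was wider in Scid.adh.2C2, as were 3.34%. The median ratio over those genes was 1.13 in the direction of the Abelson line, and all 7 genes were wider there, with a median of 1.20. Of the 9261 genes marked in both lines, 74.9% were wider there by any amount. The median of 1.20 was the ratio of Rb1, whose internal peak at Lpar6 measured 3277 bp in Scid.adh.2C2 and 4380 bp in the Abelson line. Over the main start of Rb1 the widths were close, 2506 bp and 2549 bp. At Trp53 the sum of the Abelson line included the weak peak at the internal TSS. Without it, the peaks shared with Wrap53 were 1.02 times wider in the Abelson line. When only base pairs inside the promoter windows were counted, no gene reached 1.5 times, and with peaks of at least 10-fold enrichment only Cdkn1b did. With windows of 5000 bp, or with peaks that overlap the gene added, alternatives chosen after the data were seen, the 2 genes were Cdkn1b and Cdkn2c, and Cdkn2d fell below 1.5 times. By the width of the highest peak alone there were 3 genes, Cdkn1b, Cdkn2d and Trp53, and the direction turned at Trp53. Its highest peak measured 5621 bp in Scid.adh.2C2 but 2430 bp in the Abelson line, where the region was called as separate but close peaks.

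The genes around the set were examined through lists of p53 regulators, p53 target genes, pocket proteins with E2F and MuvB factors, p27 turnover and regulators of the Cdkn2a-Cdkn2b locus, 89 genes in all. Of these, 74 were marked in both lines, 3 in Scid.adh.2C2 only, 2 in the Abelson line only and 10 in neither. Over all protein-coding genes the shares were 42.2% in both, 3.28% and 5.96% in 1 line only and 48.6% in neither. CpG-rich genes were 79 of the 89, and 68.2% of all CpG-rich genes were marked in both lines. The p53 regulators were marked in both lines at 18 of 20 genes and the p53 targets at 20 of 26. The pocket protein, E2F and MuvB genes were marked in both at 17 of 18, and the p27 turnover genes at 7 of 8. The regulators of the Cdkn2a-Cdkn2b locus, to which Polycomb genes belong, were marked in both lines at 12 of 17.

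**Figure D5:**
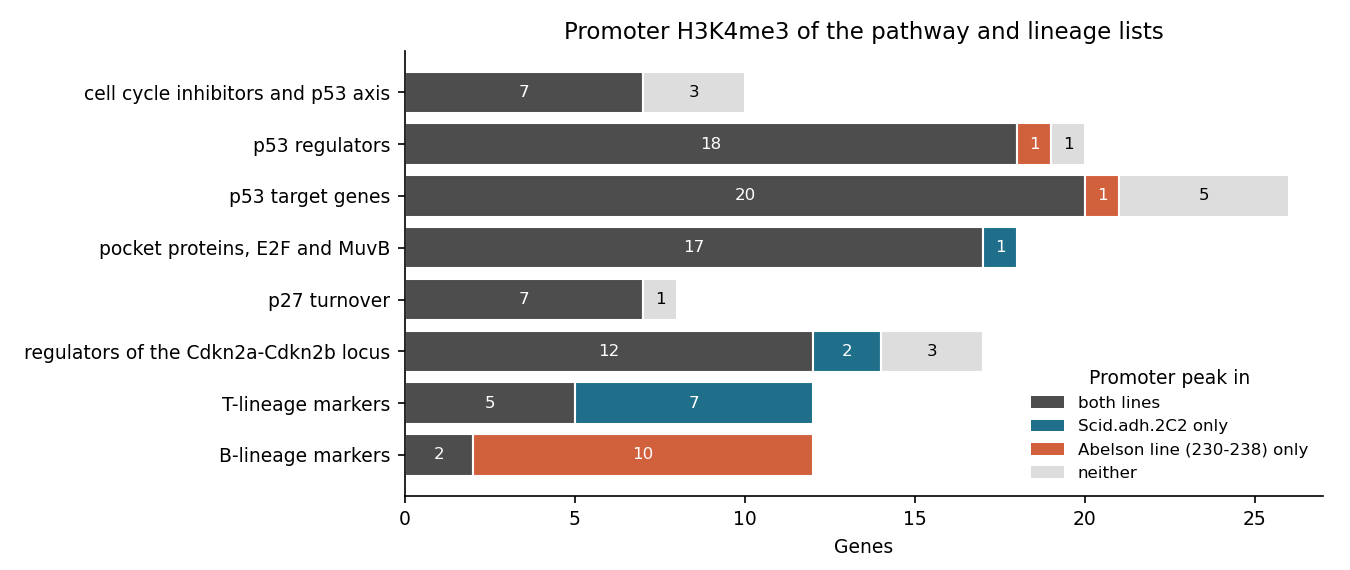
Number of genes (x axis) of each list with a promoter peak in both lines, in Scid.adh.2C2 only, in the Abelson line only or in neither, 1 combined peak list per line. The 10 genes divide into 7 and 3 with none marked in 1 line only, and the lineage markers are the lists with most genes in 1 line only, 7 of 12 for the T lineage and 10 of 12 for the B lineage.

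The genes marked in 1 line only came from 4 of the lists. Hipk2, a kinase that phosphorylates p53, and Pmaip1, which encodes the proapoptotic p53 target Noxa, were marked in the Abelson line with fold enrichments of 24.1 and 26.6. E2f6, a repressive member of the E2F family, was marked in Scid.adh.2C2 with a fold enrichment of 31.3. Among the regulators of the Cdkn2a-Cdkn2b locus, Ets1, an activator of p16Ink4a, and Id1, which counteracts that activation, were marked in Scid.adh.2C2, with fold enrichments of 23.4 and 10.2. In the Abelson line the nearest peak to a TSS of Ets1 was 12571 bp away. The call at Ets1 rests on a start site inside the gene, and Ets1 was not among the genes marked in 1 line only when a single TSS, the most upstream, was used. Id1 was at the 3.05 percentile of its list.

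Among the 74 pathway genes marked in both lines, the summed widths differed most at a few regulators. In the Abelson line the peaks were wider by 3.63 times at Rpl11, a ribosomal protein gene whose product binds Mdm2, by 3.59 times at E2f3 and by 3.46 times at the p53 target Sfn. In Scid.adh.2C2 they were wider by 5.01 times at Sirt1, which encodes a deacetylase of p53, by 2.22 times at Bmi1, a Polycomb repressor of Cdkn2a, and by 1.81 times at Ccng1. The peaks of Bmi1 added up to 6165 bp in Scid.adh.2C2 and 2772 bp in the Abelson line, with fold enrichments of 38.2 and 19.8. Several of these ratios compare different numbers of peaks. By the width of the highest peak alone, the ratio was 1.59 at Rpl11, 2.87 at E2f3, 1.49 at Sirt1 and 1.07 at Bmi1, and it was unchanged at Sfn and Ccng1, which had 1 peak in each line.

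The 10 pathway genes marked in neither line were Trp63, the p53 targets Tnfrsf10b, Perp, Phlda3, Eda2r and Plk2, the p27 ubiquitin ligase gene Skp2, and Tbx2, Tbx3 and Hmga2, which repress the Cdkn2a-Cdkn2b locus. They are named after their values were seen. Of these 10 genes, 8 were CpG-rich, as were 79 of all 89 pathway genes.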

How the data were processed

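H3K4me3 ChIP-seq lists of Scid.adh.2C2 and the Abelson line were used, 1 for each line. According to the methods of the study and the submitters' processing notes, the authors trimmed the reads (Trim Galore 0.6.7), mapped them to mm10 (GRCm38; Bowtie2 2.4.4), called narrow peaks against input at a q of 0.05 (MACS2 2.2.7.1) and kept the optimal set of both replicates at an IDR of 0.05. The deposited values of each peak are an IDR score, a fold enrichment over local background, which is a ratio, and the −log10 of the p-value and of the q-value. They were used as deposited. The lists hold no read counts, so the depth is unknown, and no test between the lines could be made. No p-value was computed.

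TSSs were those of all transcripts in GENCODE vM21, and a peak had to overlap a promoter window by at least 1 bp. Widths were summed over the promoter peaks of a gene. CpG content and motifs were read from the RefSeq GRCm38 genome. The members and lists were chosen with earlier results of these data known. The genes named were the members, protein-coding neighbors of Cdkn2a and Cdkn2b, genes that share a member's peak, pathway genes marked in 1 line only and the 3 pathway genes at each end of the width ratio, and others, such as Trp53cor1, Lockd, Nap1l4, Vpreb1 and Pou2af1, were chosen after their values were seen. Alternatives were other windows, stricter or equal peak numbers, summits, 1 TSS per gene, −log10 q and other widths. The functions were tested on simulated peaks. Python 3.11.15, numpy 2.4.6, scipy 1.17.1, pysam 0.24.0 and matplotlib 3.10.9 were used.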

Additional observations from a re-analysis of the deposited data

How the results depend on the processing

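The 8 counts named here were recomputed under alternatives, 46 values in all, and 37 stayed within 1.5 times. The counts of lineage markers, of pathway genes marked in both lines or in neither, of CpG classes and of motifs were not recomputed. The number of the 10 genes marked in each line stayed at 7 and the number marked in 1 line only at 0 under every alternative run: windows of 1000 bp and 5000 bp, the summit inside the window, the most upstream TSS, lists with equal numbers of peaks, at least 10-fold enrichment and the highest IDR score, 1000. Pathway genes marked in 1 line only numbered 4 to 7, against 5, and Ets1 left them with the most upstream TSS. Near Cdkn2a and Cdkn2b, the count of 1 peak in Scid.adh.2C2 became 0 within 100 kb and 4 within 500 kb, and the count of 3 in the Abelson line became 0 and 6, as the intervals differ in length. In the Abelson line it fell to 1 with at least 10-fold enrichment and to 1 with equal numbers of peaks, which drop the weaker peaks. The 4 genes with a percentile difference of 25 points became 0 by −log10 q and stayed at 4 with windows of 1000 bp and with the most upstream TSS. The cause of the change was not tested. The 2 genes with a width ratio of 1.5 became 0 by base pairs inside the windows, which leave out the outer parts of wide peaks, and 1 with at least 10-fold enrichment, which drops the weaker peak of Cdkn2d in the Abelson line. They became 3 by the width of the highest peak, with Trp53 added and wider in Scid.adh.2C2, whereas by summed width it was 1.22 times wider in the Abelson line. For the widths, 2 alternatives were added after the data were seen, windows of 5000 bp and the addition of peaks that overlap the gene. Both gave 2 genes again, but with Cdkn2c in place of Cdkn2d. No paired analysis was possible because each list combines both replicates and no result comes from a test, and no replicate could be left out for the same reason. A promoter without a peak may carry the mark below the authors' thresholds, and the depth that sets this limit is unknown for both lines.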

Other observations

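Among the 74 pathway genes marked in both lines, E2f1 and Ets2 had the percentiles of fold enrichment that differed most in each direction, and they are named for that reason. E2f1, the founding member of the E2F family, had a highest promoter fold enrichment of 16.6 in Scid.adh.2C2 and 30.2 in the Abelson line, at percentiles of 10.8 and 94.5. Ets2, an activator of p16Ink4a, had values of 40.2 and 15.1, at percentiles of 96.7 and 14.9. By fold enrichment, E2f4, which acts with pocket proteins as a repressor, was higher in Scid.adh.2C2 by 65.2 points. Members of the E2F family thus differed in both directions by this measure. Of the genes marked in both lines, 21.3% were higher by at least 25 points in Scid.adh.2C2 and 22.8% in the Abelson line. By −log10 q, E2f4 had 196 in Scid.adh.2C2 and 155 in the Abelson line. In the Abelson list 149 already stands at the 75.3 percentile, so the gap of E2f4 was below 25 points. No replicate values bear on these differences.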
